A study of Saccharomyces cerevisiae with 8 samples.

Results

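The promoters of 5 genes of lower glycolysis, TDH3, PGK1, GPM1, ENO2 and CDC19, were examined for binding of the transcription factor Gcr1 in budding yeast (Saccharomyces cerevisiae). A peak counted for a gene when its centre fell in the stretch from 1000 bp before to 200 bp after the start codon. Each of the 5 genes had 1 such peak in each of the 4 deposited peak lists, which gives 20 of the 1064 listed peaks. The assignment used position only and no tag value. The 5 genes, however, were chosen with earlier results of these data known, so a peak in every list may follow from that choice.

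Binding was measured by chromatin immunoprecipitation sequencing (ChIP-seq) in 8 samples, which the labels put in 4 groups of 2 replicates. The unspliced GCR1 transcript gives the form Gcr1(U), and its spliced transcript gives Gcr1(S). Cells were grown in rich medium with glucose and taken after 6 h, which the labels call exponential phase, or after 12 h, which they place past the diauxic shift. The groups are named U6, U12, S6 and S12 below for form and hour. Per the labels the parent strain was BY4741, the tagged alleles were GCR1U-TAP::his3MX6 in strain JHY9311 and GCR1S-TAP::his3MX6 in strain JHY9321, and both strains also carried GCR2-5Flag::hphMX6. Each form was therefore studied in 1 strain, with Gcr1 captured on IgG-sepharose through its tandem affinity purification tag, and its partner Gcr2 was tagged as well. No untagged or input library was analysed here, and growth phase was not checked against any measurement.

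Glycolysis turns glucose into pyruvate, and its lower part runs from the triose phosphates to pyruvate and yields the ATP of fermentation. In yeast these genes are among the most strongly transcribed, and Gcr1 activates them together with Gcr2 and the DNA-binding protein Rap1, which binds close to the Gcr1 sites. After glucose is used up, at the diauxic shift, cells turn to the ethanol they have made. The enzymes, in pathway order, are glyceraldehyde-3-phosphate dehydrogenase (TDH3, the main isozyme), phosphoglycerate kinase (PGK1), phosphoglycerate mutase (GPM1), enolase (ENO2, the isozyme favoured on glucose) and pyruvate kinase (CDC19, the main isozyme).

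Each list held 1 value per peak for the group as a whole, so replicate error is unknown throughout and no test between conditions was possible. Peak height is the deposited normalized tag count, taken here as the tags in the peak window scaled to library size. No scale is named with it, so ratios between lists rest on that reading. Bracketed ranges are exact binomial 95% intervals for counting error only, and they compare these lists, not conditions. U6 and U12 held 299 peaks each, and S6 and S12 held 233 each. A normalized unit stood for 1.5 tags in U6, 1.42 in U12, 1.07 in S6 and 0.582 in S12, the shallowest list. The usual peak window measured 182, 168, 170 and 114 bp in the same order. Within a list the windows of the 5 promoters had the same width, so their tags can be compared without a length correction.

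The 5 peaks lay at nearly the same place in every list, upstream of the gene and not at the start codon. Coordinates are those of sacCer3 (R64), as the lists give them. The centres lay from 328 to 641 bp upstream of the start codon, with a median of 456 bp over the 20 peaks. GPM1 had the nearest peak, 341 bp upstream in U6, and CDC19 the farthest, 623 bp upstream. The peaks outside the assigned range that came nearest to it lay inside ENO2, with centres 229 and 263 bp past the start codon.

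The CDC19 peak spanned I:71072-71254 in U6, in the 2260 bp between CDC19 (I:71786-73288, plus strand) and the divergent CYC3. Its centre lay 623, 641, 640 and 604 bp upstream in U6, U12, S6 and S12. The TDH3 peak spanned VII:884182-884364, in the 698 bp between TDH3 (VII:882812-883810, minus strand) and PDX1, with centres 463, 427, 465 and 458 bp upstream in the same order. The U12 peak thus lay closest to the TDH3 start codon. The GPM1 peak spanned XI:164635-164817, in the 531 bp between GPM1 (XI:163642-164385, minus strand) and NNR2, with centres 341, 328, 348 and 349 bp upstream.

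The PGK1 peak spanned III:137220-137402, in the 872 bp between PGK1 (III:137746-138996, plus strand) and the divergent ADP1. Its centres lay 435, 450, 440 and 417 bp upstream of PGK1 and between 423 and 456 bp from the start codon of ADP1, so the assignment does not tell these genes apart. The ENO2 peak spanned VIII:450772-450954, with centres 464, 459, 456 and 456 bp upstream of ENO2 (VIII:451327-452640, plus strand). It was the only one of the 5 peaks whose window overlapped other annotated genes, namely YHR173C (VIII:450815-451153) and, in part of the lists, the last bases of SPC97 (VIII:448335-450806).

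Between lists the centre moved by 8 bp at ENO2, 21 bp at GPM1, 33 bp at PGK1, 37 bp at CDC19 and 38 bp at TDH3, counted from the lowest to the highest of the 4. All 4 windows of a gene shared between 104 bp (CDC19) and 114 bp (GPM1 and ENO2). Over all peaks in both lists of a comparison the median displacement of the centre was 14 to 18.5 bp and the 90th percentile 51.2 to 61.7 bp. The members' displacements in single comparisons ran from 0 to 37 bp, below that 90th percentile. The nearest tRNA gene lay 2168 bp from the GPM1 peak and farther from the other 4.

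**Figure D1:**
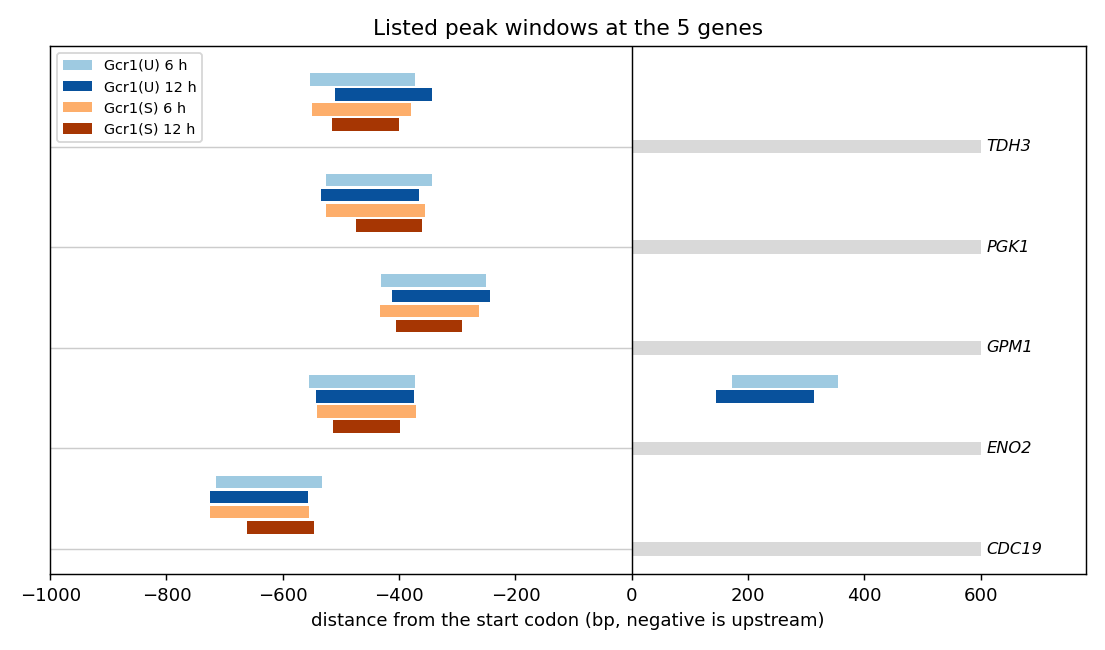
Peak windows of the 4 lists drawn as bars by distance from the start codon (bp, negative is upstream) for each gene, with the first part of each gene in grey. The 5 promoter windows lie upstream at nearly the same place in each list, and the additional windows inside ENO2 appear in the Gcr1(U) lists only.

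The 5 promoters were among the higher peaks of each list. CDC19 had 1760 normalized tags in U6, 1233 in U12, 1517 in S6 and 2247 in S12, and ranked 7, 6, 5 and 7 by tags within the lists. GPM1 had 1274, 888, 1357 and 2048 tags in the same order of lists and ranked 10, 9, 6 and 8. Both therefore stayed in the first 10 of every list.

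ENO2 had 1179 tags in U6, 478 in U12, 748 in S6 and 1670 in S12. TDH3 had 942, 413, 607 and 1365 tags in that order. PGK1 had 634, 439, 590 and 993 tags. In each of the 5 genes S12 gave the highest value and U12 the lowest. The ranks of these 3 were less steady within the lists: ENO2 ranked 12, 39, 17 and 10, TDH3 19, 75, 27 and 13, and PGK1 29, 58, 33 and 17. All 20 peaks were in the upper 50% of their list by score.

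**Figure D2:**
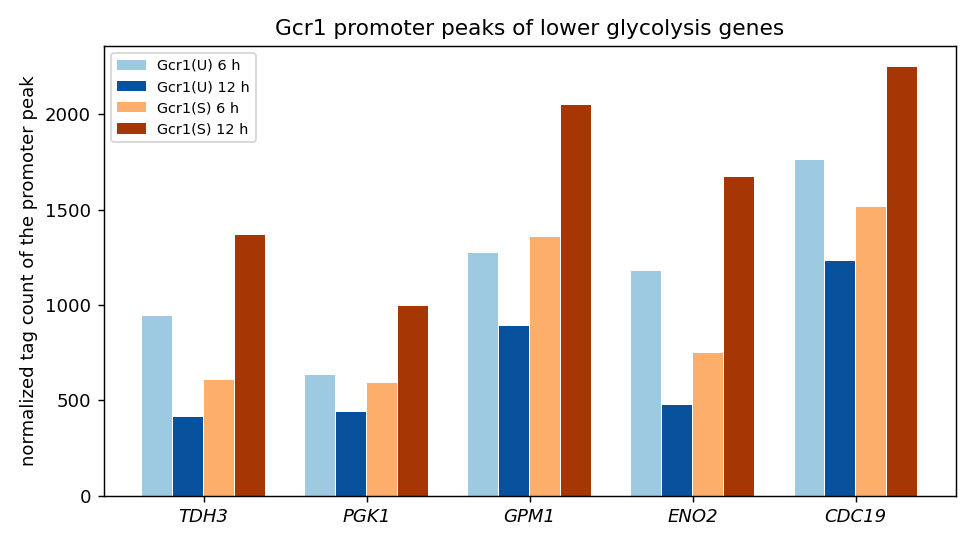
Bars give the normalized tag count of each promoter peak in the 4 lists, 1 value per list with no replicate error. In every gene the bar of S12 is the tallest (993 tags at PGK1 to 2247 at CDC19) and that of U12 the shortest (413 tags at TDH3 to 1233 at CDC19).

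The order of the 5 promoters by tags was the same in 3 lists: CDC19, GPM1, ENO2, TDH3, PGK1. Only in U12 did PGK1 stand above TDH3, and there neither ENO2 over PGK1 (ratio 1.09, 0.975 to 1.22) nor PGK1 over TDH3 (1.06, 0.947 to 1.19) was separable from 1 at this depth. TDH3 over PGK1 was also not separable in S6 (1.03, 0.922 to 1.15). CDC19 stood above GPM1 in each list, with a ratio of 1.38 (1.30 to 1.47) in U6 and of 1.10 (1.01 to 1.19) in S12. From the highest to the lowest of the 5 the ratio was 2.78 in U6, 2.98 in U12, 2.57 in S6 and 2.26 in S12.

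The share of each promoter in the summed tags of the 5 does not depend on how the lists were scaled to each other. TDH3 and ENO2, the dehydrogenase and the enolase, varied in share together. ENO2 took 20.4% (19.5 to 21.2) in U6, 13.8% (12.9 to 14.8) in U12, 15.5% (14.5 to 16.5) in S6 and 20.1% (18.9 to 21.2) in S12. TDH3 took 16.3% (15.5 to 17.1), 12.0% (11.1 to 12.9), 12.6% (11.7 to 13.5) and 16.4% (15.4 to 17.5) in the same order. Both shares were higher in U6 and S12 than in the other two lists, with no overlap of the intervals.

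This pair was chosen after its values were seen, so its sum is a description. Together TDH3 and ENO2 held 36.6% of the tags of the 5 promoters in U6, 25.8% in U12, 28.1% in S6 and 36.5% in S12. The summed tags of the 5 were 5789, 3452, 4818 and 8324 in that order. The pair's share was larger in U6 and S12, which also had the larger sums. The sum includes the pair, so share and sum are tied by construction. From U6 to S12 the share did not rise with the sum. Taken from the fold over local background in place of tags, the pair's share was 38.1%, 28.3%, 29.6% and 36.7%. CDC19 held 30.4% (29.4 to 31.4), 35.7% (34.4 to 37.1), 31.5% (30.2 to 32.8) and 27.0% (25.8 to 28.3). GPM1 held 22.0%, 25.7%, 28.2% and 24.6%. PGK1 held between 11.0% and 12.7% by tags and between 12.2% and 15.1% by fold.

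**Figure D3:**
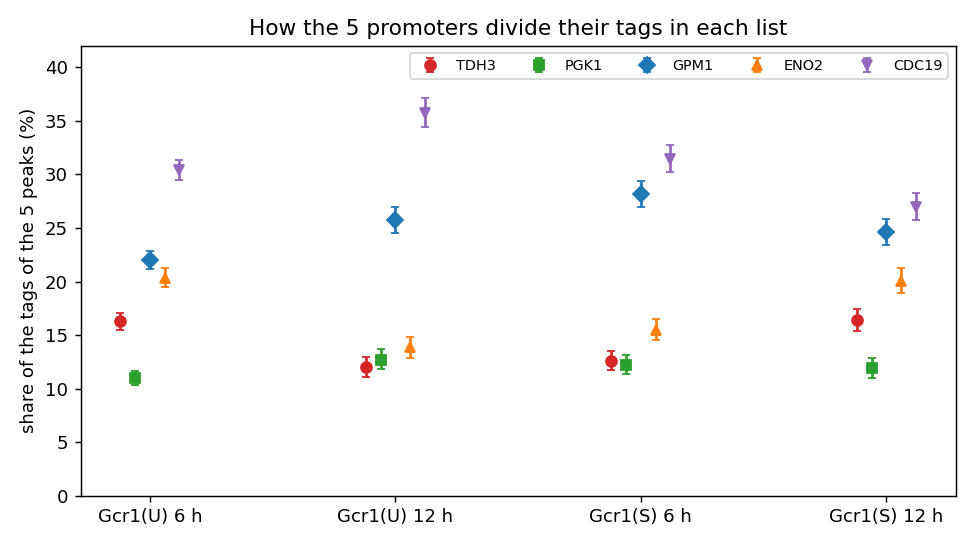
Points give each promoter's share (%) of the summed tags of the 5 peaks in each list, with exact binomial 95% intervals for counting error. TDH3 and ENO2 stand higher in U6 and S12, and PGK1 stays between 11.0% and 12.7%.

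At 6 h, where the labels call the cells exponential, the question was whether both forms occupied these promoters alike. ENO2 and TDH3 had the lower tags in S6, with ratios of S6 to U6 of 0.634 (0.583 to 0.690) and 0.644 (0.586 to 0.707). CDC19 had a ratio of 0.862 (0.810 to 0.917). PGK1 (0.930, 0.839 to 1.03) and GPM1 (1.07, 0.995 to 1.14) were not separable from 1. The ratio was at or below 1/1.5 at 2 of the 5, against 16.0% of the 162 shared peaks, and at or above 1.5 at 0 of the 5, against 12.3%. The interval lay below 1 at 3 of the 5, against 25.3% of shared peaks, and above 1 at 0, against 60.5%.

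The median ratio over the 5 at 6 h was 0.862, or -0.21 on the log2 scale, beside 1.28 (log2 0.36) over all shared peaks. The 81 shared peaks near a tRNA gene had a median ratio of 1.41, and the 56 nuclear peaks away from tRNA genes one of 1.02. The 25 mitochondrial peaks had a median ratio of 0.585, with 0 above 1. After centring on all shared peaks all 5 ratios lay below 1, from 0.495 to 0.832, and GPM1 thus changed its side. Centred on the nuclear peaks away from tRNA genes they ran from 0.624 to 1.05.

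At 12 h, past the diauxic shift by the labels, S12 exceeded U12 at all 5 promoters. The ratio was 3.50 (3.17 to 3.86) at ENO2, 3.30 (2.96 to 3.68) at TDH3, 2.31 (2.13 to 2.50) at GPM1, 2.26 (2.02 to 2.54) at PGK1 and 1.82 (1.70 to 1.96) at CDC19. It was at or above 1.5 at 5 of the 5, against 30.1% of the 163 shared peaks, and at or below 1/1.5 at 0, against 50.3%. The interval lay above 1 at 5 of the 5, against 31.9%, and below 1 at 0, against 56.4%. The median ratio was 2.31 (log2 1.21) beside 0.660 (log2 -0.60) over all shared peaks and 1.08 over the nuclear peaks away from tRNA genes. Of the 163 shared peaks, 81 lay near a tRNA gene, with a median ratio of 0.547 and 0 above 1. The shares over all shared peaks are therefore low partly because of this class. The 25 mitochondrial peaks had a median ratio of 2.11, close to that of the 5 promoters, with all 25 above 1. Of the shared peaks 3 had a larger ratio than ENO2 and 37 a larger one than CDC19. Centring on all shared peaks put the median of the 5 at 3.49. By fold over local background the ratio at CDC19 was 1.19. The deposited score, which is not scaled to library size, gave ratios below 1 at PGK1, GPM1 and CDC19.

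U12 against U6 compares the unspliced form before and past the diauxic shift. All 299 peaks of U6 matched a peak of U12, and all 233 of S6 one of S12, so within a form being listed at both times sets no peak apart, and only the values differ. Tags were lower in U12 at each of the 5. ENO2 was at 0.406 of its level at 6 h (0.370 to 0.443) and TDH3 at 0.439 (0.398 to 0.483). PGK1 (0.692, 0.624 to 0.766), GPM1 (0.697, 0.649 to 0.749) and CDC19 (0.701, 0.659 to 0.744) had almost the same ratio. The ratio was at or below 1/1.5 at 2 of the 5, against 12.0% of the 299 peaks, and at or above 1.5 at 0, against 2.68%. The interval lay below 1 at 5 of the 5, against 21.7%, and above 1 at 0, against 33.1%. The median ratio was 0.692 (log2 -0.53) beside 1.03 (log2 0.04) over all peaks, and 0.675 after centring on the latter. The 98 peaks near a tRNA gene had a median ratio of 1.26, with 94 above 1. The 27 mitochondrial peaks had one of 0.419, with 0 above 1.

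S12 against S6 makes the same comparison for the spliced form, and tags were higher in S12 at all 5 promoters. TDH3 had 2.25 times its tags at 6 h (2.02 to 2.50), ENO2 2.23 times (2.03 to 2.46), PGK1 1.68 times (1.5 to 1.89), GPM1 1.51 times (1.40 to 1.63) and CDC19 1.48 times (1.38 to 1.59). The ratio was at or above 1.5 at 4 of the 5, against 14.6% of the 233 peaks, and at or below 1/1.5 at 0, against 52.8%. The interval lay above 1 at 5 of the 5, against 27.9%, and below 1 at 0, against 58.8%. The median ratio was 1.68 (log2 0.75) beside 0.595 (log2 -0.75) over all peaks and 1.16 over nuclear peaks away from tRNA genes. Of the 233 peaks, 118 lay near a tRNA gene, with a median ratio of 0.485 and 1 above 1. The 26 mitochondrial peaks had a median ratio of 1.29, with all 26 above 1. Centring on all peaks put the median of the 5 at 2.83. Centred on the nuclear peaks away from tRNA genes the 5 ratios ran from 1.28 to 1.94, and 2 of them (TDH3 and ENO2) reached 1.5. The unscaled score gave ratios below 1 at PGK1, GPM1 and CDC19 here too. Only 2 of the 233 peaks had a larger ratio than TDH3 and 3 a larger one than ENO2, each of these counts including PFK2 of upper glycolysis.

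**Figure D4:**
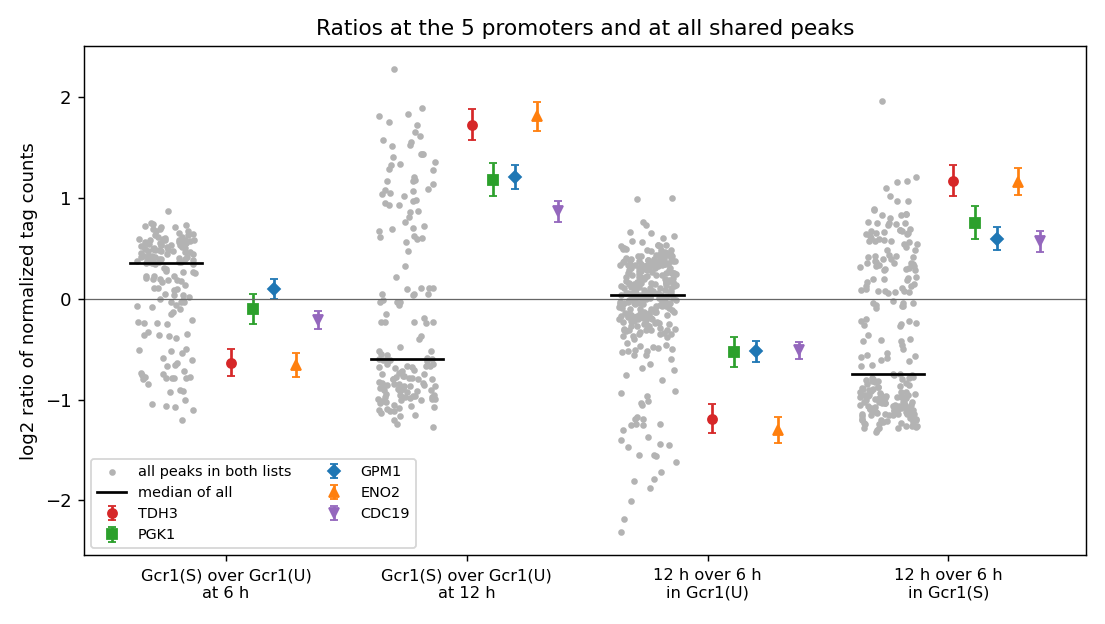
Log2 ratios of normalized tag counts in the 4 comparisons, with grey points for all peaks in both lists, a black line at their median, and coloured points with exact binomial 95% intervals for the 5 promoters. At 12 h all 5 promoters lie above 0 (ratios 1.82 to 3.50) while the median of all shared peaks lies at -0.60.

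TDH3 and ENO2 thus formed the more variable pair by normalized tags in each of the 4 comparisons, while PGK1, GPM1 and CDC19 moved less. The comparisons share lists, so they are not 4 independent observations. Ratios of 2 promoters within the same lists need no scaling, and 10 pairs were compared each time. The pair intervals excluded 1 for 8 of 10 pairs between the forms at 6 h and for 8 of 10 at 12 h, and for 6 of 10 between the times in each form. In no comparison did TDH3 and ENO2 separate from each other: the ratio at TDH3 divided by that at ENO2 was 1.02 (0.894 to 1.15) between forms at 6 h and 1.01 (0.873 to 1.16) between times in Gcr1(S). Each of the 2 separated from each of the other 3 in all 4 comparisons. The pair was picked from these same values, so its separation describes them and tests nothing. The ratio of U12 to U6 at CDC19 was 1.73 times that at ENO2 (1.55 to 1.93).

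The change over time in Gcr1(S) divided by that in Gcr1(U) was 5.51 (4.84 to 6.28) at ENO2, 5.13 (4.44 to 5.92) at TDH3, 2.43 (2.09 to 2.84) at PGK1, 2.16 (1.95 to 2.41) at GPM1 and 2.11 (1.92 to 2.33) at CDC19. Tags were lower at 12 h in Gcr1(U) and higher at 12 h in Gcr1(S) at all 5. The same combination was seen at 55 of the 162 peaks in all 4 lists (34.0%), with a median quotient of 0.563 over all 162. It was also seen at all 25 mitochondrial peaks, whose median quotient was 3.56, and at 0 of the 81 peaks near a tRNA gene. Among the 48 other nuclear peaks outside the glycolytic promoters it was seen at 22. How far signal that does not depend on Gcr1 takes part in these values was not tested.

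**Figure D5:**
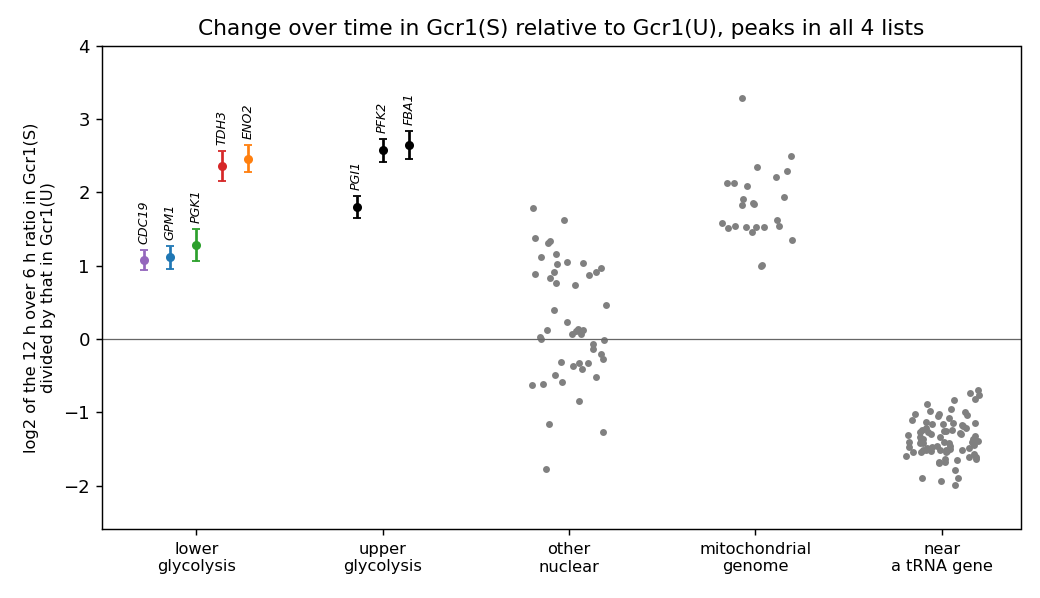
Log2 of the 12 h over 6 h ratio in Gcr1(S) divided by that in Gcr1(U), for the 162 peaks in all 4 lists by class, with exact 95% intervals for counting error at the glycolytic promoters. The 5 promoters of lower glycolysis lie above 0 (quotients 2.11 to 5.51), as do the 25 mitochondrial peaks, while the 81 peaks near tRNA genes lie below it.

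The fold over local background sets a peak against its own surroundings and does not rest on the scaling between libraries. The fold over local background at ENO2 was 6.05 in U6, 3.10 in U12, 3.64 in S6 and 7.57 in S12. At TDH3 it was 4.33, 2.09, 2.65 and 4.99, at PGK1 3.33, 2.77, 3.0 and 5.10, and at GPM1 6.62, 4.59, 5.75 and 9.68. Each of these was highest in S12 and lowest in U12. At CDC19 it was 6.91, 5.78, 6.20 and 6.87, so there S12 did not exceed U6. By fold the order of the 5 promoters was less steady than by tags. PGK1 stood above TDH3 in U12, S6 and S12, and in S12 CDC19 stood below GPM1 and ENO2. The median fold of the whole lists was 2.67, 3.10, 3.02 and 2.74, and 15 of the 20 member peaks stood above that of their list.

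The focus ratio is the share of tags that lie on the side of the peak centre where a point source of binding puts them. It was above the list median (0.663, 0.692, 0.678 and 0.675) for 18 of the 20 member peaks. GPM1 had 0.817, 0.792, 0.846 and 0.875, and CDC19 0.823, 0.841, 0.855 and 0.839. ENO2 had 0.819, 0.731, 0.786 and 0.875, with the lowest value where its tags were lowest. TDH3 (0.644) and PGK1 (0.680) in U12 were the 2 peaks below their list median, and these were also the 2 lowest of the 5 in tags there.

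A separate peak inside ENO2 was listed in Gcr1(U) and not in Gcr1(S). At 6 h it spanned VIII:451499-451681, in the coding sequence 263 bp past the start codon, with 175 tags and rank 202 of 299. At 12 h it spanned VIII:451472-451640, 229 bp past the start codon, with 346 tags and rank 128. Its ratio of U12 to U6 was 1.98 (1.70 to 2.31), and that of the ENO2 promoter peak, 727 bp away in U6, was 0.406. The quotient of these changes was 4.88 (4.08 to 5.83). Of the 299 peaks of Gcr1(U), 2 had a ratio between times at least as large, the peak itself included. The promoter peak had 6.73 times the tags of the internal one at 6 h and 1.38 times at 12 h. The focus ratio of the internal peak was 0.614 and 0.632, below the list medians. The fold over local background of the internal peak was 2.34 at 6 h and 3.42 at 12 h. The lowest fold listed was 2 to 2.01 in the 4 lists. The lowest tag values listed for Gcr1(S) were 107.5 at 6 h and 169.3 at 12 h. The Gcr1(S) lists give no value inside ENO2, so the signal there is unknown. ENO1 has a coding sequence nearly identical to that of ENO2, so short reads inside the gene may come from either, and no source used here says how such reads were placed.

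Near TDH3 a second peak was listed in Gcr1(S) only, at VII:882558-882728 at 6 h, 84 bp past the end of the gene and outside any annotated gene. It had 383 tags at 6 h (rank 162 of 233) and 179 at 12 h (rank 227), a ratio of 0.466 (0.373 to 0.580), beside 2.25 at the TDH3 promoter peak. Its fold over local background was 2.55 and 2.37, and the Gcr1(U) lists give no value there. A Gcr1(S) peak 2209 bp from that of GPM1 overlapped a tRNA gene and had 425 and 193 tags. No other peak was listed within 3000 bp of the 5 promoter peaks.

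Among other genes of the pathway, 3 of the 8 listed for upper glycolysis had a peak in Gcr1(U), namely PGI1 (phosphoglucose isomerase), PFK2 (a phosphofructokinase subunit) and FBA1 (aldolase). Gcr1(S) had these and TPI1 (triose phosphate isomerase). HXK1, HXK2, GLK1 and PFK1 had none. Of 6 isozyme genes of the lower pathway, TDH1, TDH2, GPM2, GPM3, ENO1 and PYK2, 0 had a peak in any list. Among these isozymes the lists thus held TDH3, GPM1, ENO2 and CDC19 alone. Every listed peak had a match at the other time of its form, and U12, with 299 peaks, holds 1 named IV-1820. The lists may therefore leave out called peaks, for example those called at 1 time only. A gene with no listed peak is thus not shown to lack a called peak or binding. The members and the isozyme list were chosen with earlier results known, so this contrast describes the choice as well. The median ratio over the shared upper glycolysis promoters was 0.525 between forms at 6 h (3 genes) and 2.97 at 12 h, 0.387 between times in Gcr1(U) and 1.99 in Gcr1(S) (4 genes). The values at TDH3 and ENO2 lay within the range of PGI1, PFK2 and FBA1 in Gcr1(U) between times (0.341 to 0.512), and those at PGK1, GPM1 and CDC19 lay outside it. TDH3 and ENO2 also lay within the upper glycolysis range between forms at 6 h (0.475 to 0.775) and between times in Gcr1(S) (1.78 to 2.31). Between forms at 12 h both lay above that range (2.70 to 3.13). In fermentation ADH1, alcohol dehydrogenase, had a ratio of 0.379 between times in Gcr1(U) and 1.31 in Gcr1(S). PDC1, pyruvate decarboxylase, had a listed peak in Gcr1(S) only, with 486 and 539 tags.

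The peaks whose tags over the 4 lists were most like the mean pattern of the 5 promoters were PGI1 (Pearson r = 0.996 of log2 tags over 4 lists), a peak at SDH1 and AVT3 (r = 0.989) and the promoter of GCR1 itself (r = 0.975). SDH1 encodes a succinate dehydrogenase subunit. The PGI1 peak had 1674, 857, 1298 and 2313 tags, the SDH1 peak 587, 365, 459 and 706, and the GCR1 peak 420, 302, 420 and 622, in the order of lists above. With 4 points, which share the depth of each list, these coefficients describe shape only. The lowest coefficient of the 5 promoters themselves with their mean was 0.956.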

How the data were processed

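The 8 ChIP-seq samples entered the files as 1 peak list for each form and time. The submitters' processing notes name the build sacCer3 and, with no roles, BWA 0.7.15, Picard 2.92, bedtools and HOMER, besides bcl2fastq 1.8.2 and FastQC 0.10.1. No source used here says whether replicates were pooled before peaks were called. Per the file headers the signal is the normalized tag count, the score is that of findPeaks, the fold is the enrichment over local background and the focus ratio is a fraction of tags, all made by the authors' peak caller.

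The headers name no scale. Values lay on an even grid within 0.05 units (99.6% to 100% of the values of a list, against 11.6% to 30.0% by chance), and the step was taken as 0.5 tags because the deposited score moves in such steps. Tags so derived were rounded to whole tags for exact (Clopper-Pearson) 95% intervals, and for exact conditional intervals of quotients of ratios. Intervals cover counting error only, and they treat each tag as a separate molecule. Amplified reads with no molecular identifier may be copies of 1 molecule, and the intervals would then be too narrow. A step of fewer tags would give fewer tags per peak and so wider intervals.

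Gene positions came from RefSeq (R64), with strand read from the systematic name. Peaks were shared when they overlapped by at least 1 bp. A ratio of at least 1.5, or at most its inverse, was the threshold for counts. Within a form, peaks at both times came in matched numbers, so the lists may be a selection of the peaks called. The calculation of the intervals and of the tag step was run on simulated data, and no outcome is given here. Simulated data cannot show whether the assumed step, or counting error alone, holds for the deposited lists. Python 3.11.15, numpy 2.4.6, pandas 2.3.3 and scipy 1.17.1 were used. The members and gene lists were chosen with earlier results of these data known. The genes named are the 5 members, the peak inside ENO2, a fixed list of other glycolytic and fermentation genes, peaks beside a member and the 3 peaks most like the members' mean. Motif searches in the peaks were planned and not run, since no genome sequence was used here. Alternatives covered scaling, measure of height, score threshold, assignment range and overlap.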

Additional observations from a re-analysis of the deposited data

Results flagged for a closer look

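At all 5 promoters the normalized tags were lower at 12 h in the unspliced form and higher at 12 h in the spliced form. The change in Gcr1(S) divided by that in Gcr1(U) was 5.51 at ENO2, 5.13 at TDH3, 2.43 at PGK1, 2.16 at GPM1 and 2.11 at CDC19. The same combination was seen at 55 of the 162 peaks in all 4 lists (34.0%). Among those 55 were all 25 mitochondrial peaks and all 3 upper glycolysis promoters, with quotients of 3.48 to 6.25 at the latter. All 5 members were flagged because the forms moved in opposite directions, each in 1 list per time. The difference was not tested against replicates.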

How the results depend on the processing

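No paired analysis was possible because the lists hold no value per replicate, and for the same reason no replicate could be left out. The median ratio of the 5 promoters was 0.673 between forms at 6 h, 3.49 at 12 h and 2.83 between times in Gcr1(S) when centred on all shared peaks, and 1.45 for the last when centred on nuclear peaks away from tRNA genes. Per bp of window these medians were 0.923, 3.40 and 2.51. By fold over local background the median between forms at 12 h was 2.11. With centres limited to 500 bp upstream, which leaves out CDC19, the medians were 0.787 and 2.80 between forms at 6 h and 12 h, and 0.565 and 1.96 between times in Gcr1(U) and Gcr1(S). The deposited score is not scaled to library size and Gcr1(S) at 12 h is the shallowest list. By that score the median was 0.621 between forms at 6 h, and it turned below 1 between forms at 12 h (0.944, with 0.925 at PGK1, 0.944 at GPM1 and 0.746 at CDC19) and between times in Gcr1(S) (0.918, with 0.918 at PGK1, 0.809 at GPM1 and 0.798 at CDC19, which was 1.48 as deposited). The score divided by the tags per unit, an alternative added after seeing the data, kept all 20 single ratios within their intervals. The tags per unit were themselves sought near the ratio of score to tags, so this outcome was largely fixed beforehand. By fold, CDC19 took 25.4%, 31.5%, 29.2% and 20.1% of the 5 in the order U6, U12, S6 and S12. Measured to the nearest peak edge the median distance from the start codon was 372 bp. The upper 50% by score and centres within 100 bp left the medians as they were. Neither setting could change them, since all 20 peaks were in that upper 50% and the members' centres moved by at most 37 bp. Of 120 single ratios under alternatives 59 stayed within their interval, 56 lay outside it with no ratio past 1.5 turned, CDC19 between times in Gcr1(S) by score among them, and 5 past 1.5 turned. Of the 59, 20 came from the score divided by the tags per unit. Motif alternatives were not run. Between forms at 6 h the counting interval included 1 at PGK1 and GPM1. GPM1 moved from 1.07 to 0.832 when centred on all shared peaks and to 0.869 by fold, farther than that interval reaches.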
